A study of Mus musculus with 12 samples.

Results

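Astrocytes are the glial cells that wrap synapses and vessels, clear glutamate and potassium, supply metabolites to neurons and secrete lipoproteins. Many of the genes that mark them also respond when the brain is injured or inflamed. N6-methyladenosine (m6A) is a methyl mark that an enzyme complex adds to adenosines of mRNA, often near stop codons, and that reader proteins bind to alter the splicing, decay or translation of the transcript.

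The genes described here are 41 astrocyte genes, chosen by name, and their peaks are the entries that carry one of those names in the WT peak list, in the Tyrobp-/- peak list and in the table that compares the genotypes. Of the 41 genes, 40 had a peak in at least 1 list, among 17744 gene names with a peak in all. The only one without a peak was Cpe, which encodes carboxypeptidase E. By role they were cytoskeletal and calcium-binding proteins (Gfap, Vim, S100b), membrane transport and junction proteins (Aqp4, Gja1, Gjb6, Mlc1, Hepacam, Atp1b2), metabolic enzymes and their regulators (Aldh1l1, Aldoc, Glul, Acsl6, Cbs, Ppp1r3c, Plpp3), transcriptional regulators (Sox9, Id3, Id4, Nfia, Nfib, Hes5), receptors and signalling proteins (Fgfr3, Ntsr2, F3, Daam2, Ndrg2), secreted proteins (Apoe, Clu, Cst3, Sparcl1, Mfge8, Agt, Lcat, Itih3, Cpe), proteoglycans of the extracellular matrix (Bcan, Ncan) and metallothioneins (Mt1, Mt2, Mt3).

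The study profiled hippocampal RNA of C57BL/6 mice aged 6 months, either WT or Tyrobp-/-. TYROBP is a membrane adaptor that microglia use to pass on signals from TREM2 and related receptors. Each genotype had 3 samples, each sample was RNA pooled from 3 mice, and each sample gave 1 library of RNA bound by an m6A antibody (IP) and 1 of the RNA before binding (input). Per the study's methods the animals were males, the controls were littermates, and the knockout is a small germline deletion in exon 2 of Tyrobp made with a TALEN nuclease, so it is carried by every cell type. No further treatment was given in the labels.

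The 12 libraries held from 61189368 to 73554506 valid reads. IP libraries had a GC content between 49.16 and 50.24% in WT and between 48.46 and 49.33% in Tyrobp-/-, with a difference of Tyrobp-/- minus WT of -0.91, -0.70 and -0.72 percentage points between samples of the same number, while the inputs lay between 47.59 and 48.00%. The part of this difference in the peak values was not tested. Tyrobp itself had no peak in either list, so the peaks gave no check of the targeted gene. Neuronal markers had peaks in 11 of 12 genes and microglial markers in 10 of 12. In such tissue, fewer astrocytes and less RNA per astrocyte cannot be told apart. A peak value here is the fold enrichment of IP over input reads, so it is not a level of RNA. It is a ratio within the libraries of 1 genotype, so it does not measure the total amount of m6A either. With other assays, the study reported less total m6A in the Tyrobp-/- hippocampus and less m6A staining in its astrocytes. Those measures were not compared with the peaks here.

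Peaks were called by the authors on the 3 samples of a genotype together. Each peak therefore has 1 value per genotype and no error between samples, and the reads behind a single peak are unknown. Intervals below are exact 95% binomial intervals or, for medians, 95% order-statistic intervals; they cover counting error over peaks only, and peaks of one gene are not independent.

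In both genotypes most of these genes had a listed peak, at any fold enrichment. The share of all expressed genes with a peak was not worked out here. The WT list held 72 peaks in 38 astrocyte genes and the Tyrobp-/- list 82 peaks in 38, of 33622 and 34935 peaks in all. Peaks in both lists were found for 36 genes. Apoe and Itih3 had a peak in WT only, and S100b and Atp1b2 in Tyrobp-/- only. Over all genes with a peak, 79.9% were in both lists, 9.01% in WT only and 11.1% in Tyrobp-/- only.

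The sequences that follow are starts that lay under a peak, which does not place a mark within them. They are the first 30 bases of 3 annotated transcripts whose start was wholly under a peak in both genotypes, read 5′ to 3′ on the gene's strand from RefSeq (GRCm38.p6). The capital marks the first annotated base, because m6A antibodies also bind a related mark on adenosine next to the cap.
Plpp3, chr4:105157347-105157376, plus strand: Agaaaacaaaccgagcgatcacagcggcag
Ndrg2, chr14:51913459-51913488, minus strand: Cctggtagcccaggcgagttacggggcgtg
Ppp1r3c, chr19:36736575-36736604, minus strand: Gggtgcggttgtcgcggtcgccgctgcctc

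The peak over the Plpp3 start had a fold enrichment of 8.9 in WT and 7.14 in Tyrobp-/-. The corresponding values were 3.18 and 4.88 for Ndrg2 and 7.67 and 8.38 for Ppp1r3c. The Ndrg2 peak had 120 exonic bases in WT and 269 in Tyrobp-/-, where it also covered another Ndrg2 start. The Ppp1r3c peak had 1408 exonic bases in WT and 1109 in Tyrobp-/-, most of them beyond the bases shown. The first base was A in Plpp3, C in Ndrg2 and G in Ppp1r3c. Over all 32851 start windows in the table, the first base was A in 34.4%, C in 16.3% and G in 35.6%.

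Starts could be looked up for 34 of the 41 genes, 43 starts in all, and at least 25 of the first 50 bases lay under a peak in both lists at 5 of them, those of Plpp3, Ndrg2, Ppp1r3c, Aldoc and Hepacam. The letters GGAC, a common core of m6A sites, were searched in the first 50 bases on both strands. On the gene's strand they occurred at 1 of those 5 starts, that of Hepacam, against 18.9% of all windows (17.4% on the other strand). At Hepacam the letters began at base 7, upstream of the peak, which covered the last 36 of the 50 bases. These matches describe the windows only.

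Peak heights spanned a wide range, which the plot of every peak by gene shows.

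**Figure D1:**
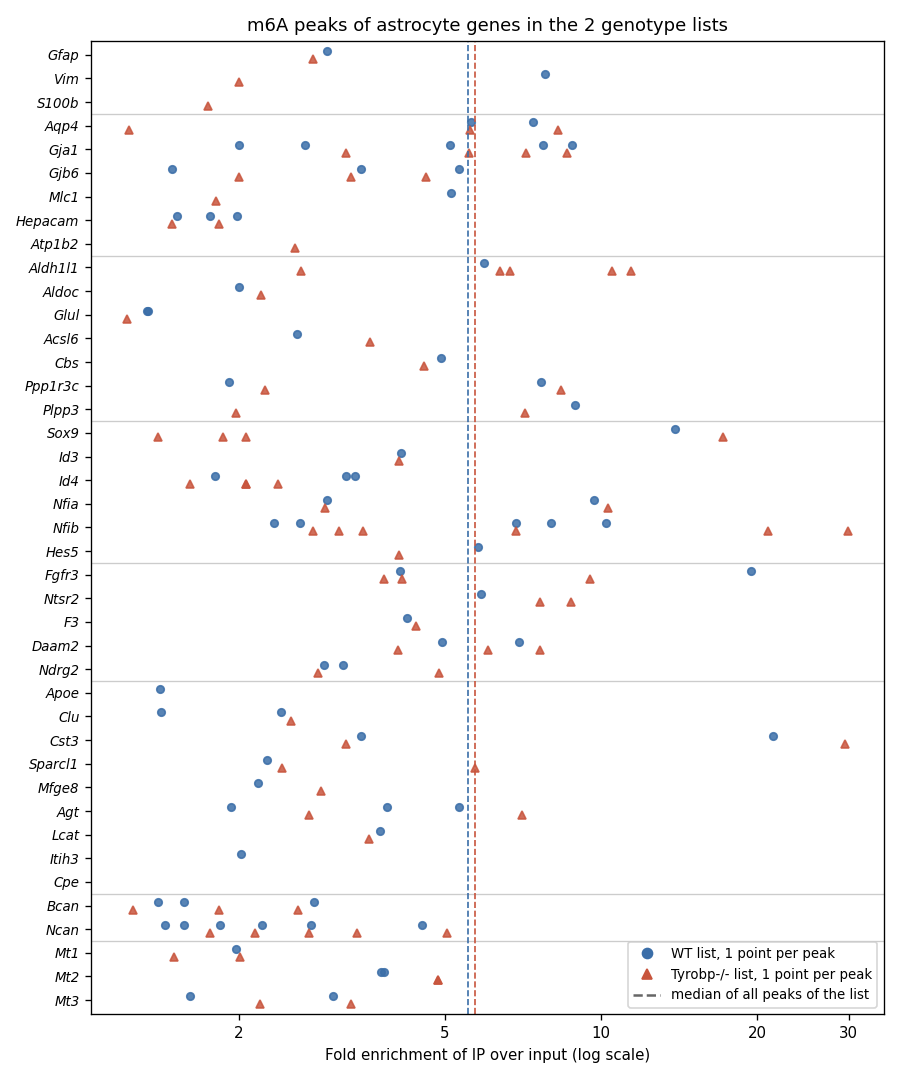
Fold enrichment of IP over input (log scale) of each peak of the 41 astrocyte genes, grouped by role, in the WT list (circles) and the Tyrobp-/- list (triangles). Dashed lines mark the medians of all peaks, 5.54 in WT and 5.72 in Tyrobp-/-, and most points of the astrocyte genes lie to their left.

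The median fold enrichment of astrocyte gene peaks was 3.2 in WT and 3.29 in Tyrobp-/-. All peaks had medians of 5.54 and 5.72. Peaks with a fold enrichment of at least 10 made up 4 of 72 and 7 of 82 astrocyte peaks, against 21.8% and 22.0% of all. Peaks below 2 made up 18 of 72 and 14 of 82, against 9.56% and 8.42% of all.

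The same peaks stood out from their input with small FDR values. The peak-calling FDR was below 1e-100 in 47.2% of astrocyte gene peaks in WT and 46.3% in Tyrobp-/-, against 24.1% and 22.8% of all peaks. An FDR listed as 0 was found for 21 (29.2%) and 19 (23.2%) of them, against 11.5% and 10.2% of all. In each list 2 peaks did not reach an FDR below 0.05 (2.78% and 2.44%, against 10.3% and 11.0% of all peaks), those in the first exon of Gja1 and of Vim in WT, and those in the first exon of Aldh1l1 and in the 3′ UTR of Sox9 in Tyrobp-/-. The FDR depends on read depth as well as on enrichment.

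Cytoskeletal and calcium-binding genes carried few peaks. Gfap, the intermediate filament of astrocytes, had 1 peak in the 5′ UTR class in each list (chr11:102896927-102897196 in WT, minus strand), with a fold enrichment of 2.96 in WT and 2.78 in Tyrobp-/-. Vim, another intermediate filament gene, had peaks at different places. Its WT peak lay in the first exon (fold enrichment 7.81, FDR 0.162), and its Tyrobp-/- peak lay in the 3′ UTR (fold enrichment 2, FDR 6.31e-13). S100b, a calcium-binding protein released by astrocytes, had only a 90-base peak in Tyrobp-/- (chr10:76253853-76253942, fold enrichment 1.75). A WT peak named for the neighbouring gene Dip2a, with a fold enrichment of 1.71, shared 60 of those bases, so the 2 genes cannot be told apart at that place.

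Membrane transport and junction genes held 14 peaks in each list. Aqp4, the water channel of astrocyte endfeet, had a 3′ UTR peak over 989 exonic bases with a fold enrichment of 7.4 in WT and 8.27 in Tyrobp-/-, and a peak of the 5′ UTR class at 5.61 and 5.59. Another Aqp4 peak, of 91 bases, was listed in Tyrobp-/- only, at 1.23. All Aqp4 peaks lay within the span of A830021F12Rik, so the 2 genes cannot be told apart without strand.

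Gja1, which encodes the gap junction protein connexin 43, had 5 peaks in WT and 4 in Tyrobp-/-. Its longest 3′ UTR peak had a fold enrichment of 7.72 in WT and 7.17 in Tyrobp-/-. The other 3′ UTR peak, in the span of Gm36460, was at 5.11 and 5.56. At the start of Gja1 the WT list held a peak of 361 bases at 2 and another of 301 bases at 8.79 (FDR 0.0933). The Tyrobp-/- list held 1 peak there, of 751 bases at 8.58. The borders of the calls thus differed there. Gjb6, the other astrocyte connexin gene, had 3 peaks in each list, strongest at 5.32 and 4.6.

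The remaining membrane genes had lower peaks or unmatched ones. Hepacam, an adhesion molecule that anchors MLC1, had peaks from 1.52 to 1.99 in WT and at 1.49 and 1.83 in Tyrobp-/-. Mlc1, a membrane protein of endfeet, had 1 peak of the 5′ UTR class in each list, at 5.13 in WT (FDR 0.000331) and 1.81 in Tyrobp-/- (FDR 2.51e-56). The peaks did not overlap, and the WT peak lay upstream of the RefSeq start looked up (88978553). Atp1b2, a sodium pump subunit, had a 3′ UTR peak in Tyrobp-/- only (chr11:69599736-69599885, fold enrichment 2.57, FDR 1e-195), with no overlapping WT peak.

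Metabolic genes included the lowest enrichment of the group. Glul, the enzyme that turns glutamate into glutamine, had a peak in its last exon at 1.34 in WT (chr1:153908017-153908137) and 1.22 in Tyrobp-/-, and a 3′ UTR peak at 1.33 in WT only. The FDR of the last-exon peak was 0 as listed in WT and 1e-156 in Tyrobp-/-. Aldoc, a glycolytic enzyme, had 1 peak at 2 and 2.21, and Cbs, an enzyme of cysteine synthesis, 1 at 4.92 and 4.56. Besides the peak over its start, Ppp1r3c, a glycogen-targeting subunit of protein phosphatase 1, had a 3′ UTR peak at 1.92 in WT and 2.25 in Tyrobp-/-.

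Aldh1l1, a folate enzyme used as a pan-astrocyte marker, had 1 peak in WT and 5 in Tyrobp-/-. The WT peak lay in the 3′ UTR over 569 bases (chr6:90598947-90599515) at 5.95. In Tyrobp-/- that stretch was called as 2 peaks, of 210 bases at 2.64 and of 330 bases at 6.39. The other 3 were a 3′ UTR peak of 151 bases at 11.4 (FDR 0.01) and first-exon peaks at 10.5 (FDR 0.0174) and 6.67 (FDR 0.290). The first-exon peaks overlap each other, lie in the span of Klf15 and lie upstream of the RefSeq start looked up (90550793). Of the 3′ UTR peaks in Tyrobp-/-, 2 lie in the span of Gm15756, as does the WT peak.

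Transcriptional regulators held the strongest 3′ UTR peak of the astrocyte genes in each list, that of Sox9. Sox9, which specifies astrocyte fate, had a 3′ UTR peak of 870 bases at 13.9 in WT (chr11:112785154-112786023) and of 929 bases at 17.2 in Tyrobp-/-, with 3 more 3′ UTR peaks between 1.4 and 2.07 in Tyrobp-/- only. Nfia, a factor that starts gliogenesis, had a 3′ UTR peak at 9.7 in WT and 10.3 in Tyrobp-/-, and an exon 2 peak at 2.96 and 2.93.

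Nfib, its paralog, had 5 peaks in WT and 6 in Tyrobp-/-. An exon peak at chr4:82546908-82547292 had a fold enrichment of 10.2 in WT and 29.9 in Tyrobp-/-, with 385 and 355 exonic bases of which 355 were shared. It was annotated to exon 2 of a 2-exon transcript and lay in the span of Gm11266. No Nfib peak was listed in the comparison table, so the difference between 10.2 and 29.9 has no test. A further Nfib peak of the 5′ UTR class, over 2 distant blocks, was called in Tyrobp-/- at 21 (FDR 1.59e-12) and shared no exonic base with a WT peak of the gene. The main 3′ UTR peak was at 8.02 in WT and 6.86 in Tyrobp-/-.

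The other regulators had lower peaks. Id3, an inhibitor of differentiation, had a 3′ UTR peak at 4.11 in WT and 4.07 in Tyrobp-/-. Hes5, an effector of Notch, had 1 at 5.8 and 4.08. Id4, a relative of Id3, had 3 and 4 peaks between 1.61 and 3.35, and in each list a pair of them covered nearly the same bases in the span of A330033J07Rik.

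Among receptors and signalling genes, Fgfr3 had a WT peak that lay mostly under a Tyrobp-/- peak of another name. Fgfr3, a fibroblast growth factor receptor, had a peak of the 5′ UTR class, of 570 bases, at 19.5 in WT (chr5:33721152-33721721). This WT peak lay upstream of the RefSeq starts looked up, the first at 33721724. It shared 1 base with its Tyrobp-/- partner at 3.81. A Tyrobp-/- peak named for G630022F23Rik, with a fold enrichment of 23.8, shared 480 of the bases. The small 61-base Fgfr3 peak was at 4.1 and 4.13. A further Fgfr3 peak, of 210 bases at 9.53 (FDR 0.0309), was listed in Tyrobp-/- only. Ntsr2, a neurotensin receptor, had a 3′ UTR peak at 5.88 in WT and 8.74 in Tyrobp-/-. Its 5′ UTR peak at 7.62 (FDR 0.0105), in the span of Lpin1, was listed in Tyrobp-/- only. F3, which encodes tissue factor, had 1 peak at 4.22 and 4.4, and Ndrg2 had a 3′ UTR peak at 2.92 and 2.85 besides that over its start.

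Among the astrocyte genes, secreted proteins held the strongest WT peak, that of Cst3, as well as peaks below 2. Cst3, the protease inhibitor cystatin C, had a 60-base 5′ UTR peak at the same bases in both lists (chr2:148875633-148875692, minus strand), with a fold enrichment of 21.5 in WT (FDR 4.17e-08) and 29.5 in Tyrobp-/- (FDR 1.29e-08). That 60-base peak, of the authors' 5′ UTR class, lay upstream of the RefSeq start looked up (148875512). The 3′ UTR peak of Cst3 was at 3.44 and 3.22. Apoe, the lipid carrier of the brain, had 1 peak, in the last exon in WT only (chr7:19696495-19696732, exon 4 of 4), at 1.41 with an FDR of 1e-239. Clu, another lipoprotein component, had a peak of the 5′ UTR class at 2.41 in WT and 2.53 in Tyrobp-/-, and a 91-base 3′ UTR peak at 1.42 in WT only. Itih3, a protein that binds hyaluronan, had a 3′ UTR peak in WT only (chr14:30908572-30908751) at 2.02 with an FDR of 2.51e-17.

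Agt, the precursor of angiotensin, had a 3′ UTR peak over the same 414 bases at 5.32 in WT and 7.03 in Tyrobp-/-, an exon 2 peak at 3.87 and 2.74, and a further peak at 1.93 in WT only. Lcat, which esterifies cholesterol, had 1 peak at 3.74 and 3.57, and Mfge8, a phagocytosis bridge, 1 at 2.18 and 2.89. Sparcl1, a secreted protein that promotes synapses, had 1 peak at 2.27 and 2.43. Another Sparcl1 peak, in the span of LOC330143, was listed at 5.72 (FDR 0.00501) in Tyrobp-/- only.

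Matrix and metal-binding genes had many low peaks. Ncan, the proteoglycan neurocan, had 6 peaks in WT and 5 in Tyrobp-/-. In 5 of 5 matched pairs, all of this 1 gene and so not independent, the value was higher in Tyrobp-/-, against 55.6% of all pairs. The difference was 0.16 to 0.30 on the log2 scale, and the highest peak was at 4.51 and 5.04 over the same 721 bases of exon 8. Bcan, the proteoglycan brevican, had 3 peaks in each list, at 1.4 to 2.8 in WT and 1.25 to 2.6 in Tyrobp-/-.

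The metallothioneins, which bind zinc and copper, had a higher fold enrichment in Tyrobp-/- in 5 of 5 pairs, against 55.6% of all pairs. Pairs of one gene are not independent, and the log2 ratio of the Mt1 pair was only 0.02. Mt2 was at 3.77 and 3.81 in WT and at 4.85 and 4.84 in Tyrobp-/-, in a pair of peaks that cover nearly the same bases. Mt3 was at 1.61 and 3.04 in WT and at 2.2 and 3.29 in Tyrobp-/-, and Mt1 was at 1.98 in WT and 2.01 in Tyrobp-/-. Another Mt1 peak was listed at 1.5 in Tyrobp-/- only. The 3 genes resemble each other in sequence, and how reads that fit several places were counted was not given in the sources used here.

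The place of the peaks was described from the classes of the authors' annotation. The 3′ UTR class held 36 of 72 astrocyte gene peaks in WT (50%, interval 38.0 to 62.0%) and 43 of 82 in Tyrobp-/- (52.4%, 41.1 to 63.6%), against 47.2% and 49.3% of all peaks. The 5′ UTR class held 29.2% (19.1 to 41.1%) and 29.3% (19.7 to 40.4%), against 18.9% and 17.3%. Some peaks of this class lay far from the start, such as a Gjb6 peak at 0.88 of the transcript span in WT. By position, 23.6% of astrocyte gene peaks in WT and 25.6% in Tyrobp-/- had a midpoint in the first 20% of the span. Over all peaks these shares were 25.2% and 24.1%. The first-exon class held 2.78% and 2.44%, against 11.5% and 11.6%, and other exons 18.1% and 15.9%, against 22.4% and 21.7%. A 3′ UTR peak was found in 29 genes in each list, and a 5′ UTR peak in 17 in WT and 18 in Tyrobp-/-.

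**Figure D2:**
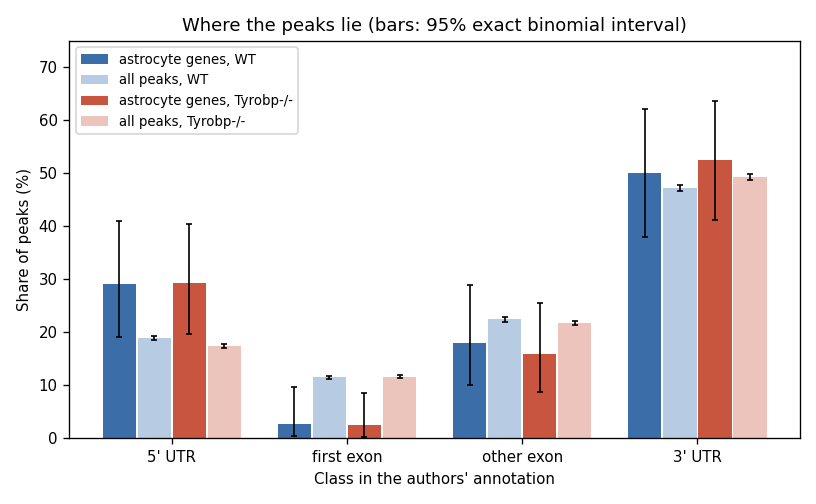
Share of peaks in each class of the authors' annotation for the astrocyte genes and for all peaks of each list, with exact 95% binomial intervals as bars. The 3′ UTR holds 50% and 52.4% of astrocyte gene peaks, and the first exon 2.78% and 2.44%.

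In both lists the median was higher in the 5′ UTR class than in the 3′ UTR class, for the astrocyte genes as for all peaks. Astrocyte gene peaks had a median fold enrichment of 3.29 in WT and 2.89 in Tyrobp-/- in the 3′ UTR, and of 3.77 and 4.37 in the 5′ UTR. All peaks had 5.2 and 5.28 in the 3′ UTR and 5.86 and 6.06 in the 5′ UTR. A single peak was listed in 19 astrocyte genes in WT (50%) and 15 in Tyrobp-/- (39.5%), against 44.95% and 43.64% of all genes with a peak. There were 3 or more in 8 (21.1%) and 11 (28.95%), against 28.1% and 28.89%. Ncan, Nfib and Gja1 had the most in WT, and Nfib, Ncan and Aldh1l1 in Tyrobp-/-.

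**Figure D3:**
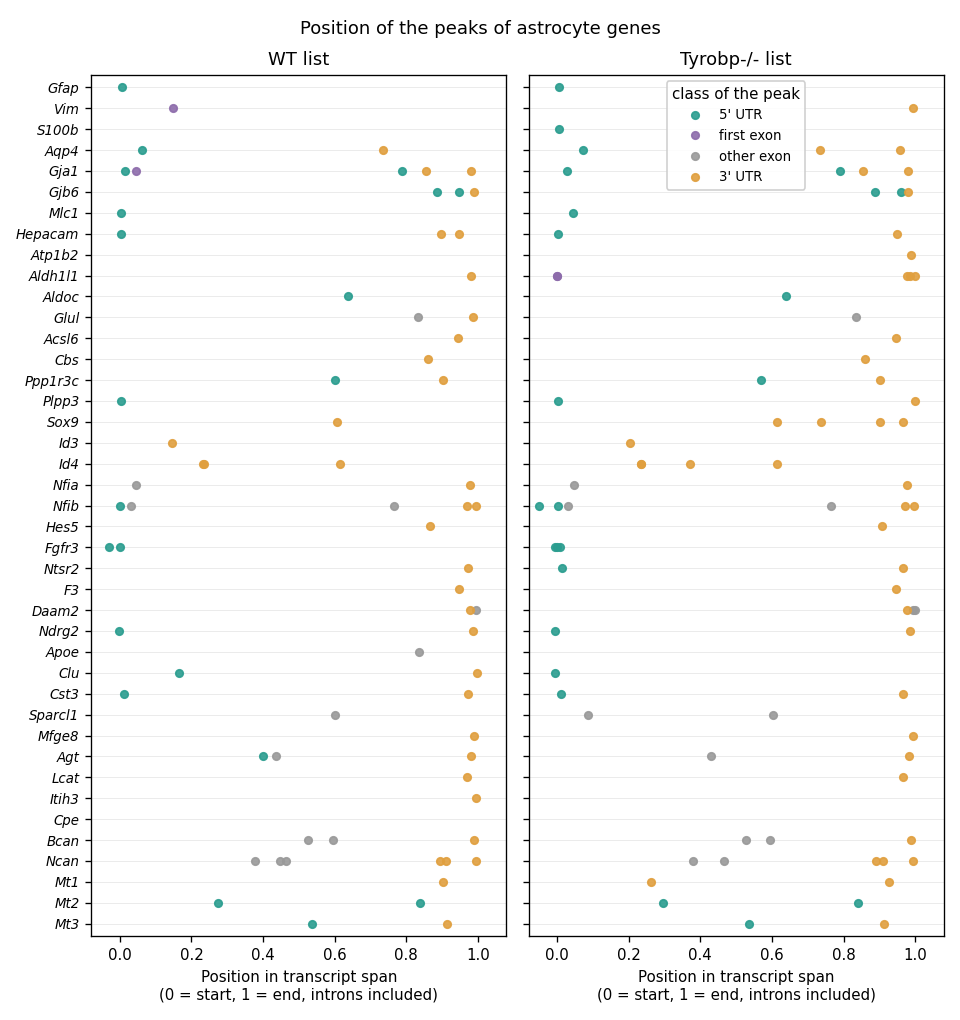
Position of each astrocyte gene peak along the span of the transcript to which it was assigned (0 is the start and 1 the end, introns included), coloured by class, with 1 Nfib peak in Tyrobp-/- that lies far upstream drawn at the left edge. Of 72 WT peaks, 36 lie in the last 20% of the span, as do 40 of 82 in Tyrobp-/-. Over all peaks of the lists, 50.2% in WT and 51.9% in Tyrobp-/- lie there.

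Most peaks recurred between the genotypes, where overlap was counted over the whole span of a peak, introns included, and whatever gene the other peak was named for. Of 72 WT peaks, 63 overlapped a Tyrobp-/- peak by at least 1 base (87.5%, interval 77.6 to 94.1%), against 80.0% of all WT peaks. Of 82 Tyrobp-/- peaks, 67 overlapped a WT peak (81.7%, 71.6 to 89.4%), against 77.9% of all. An overlap that covered 50% of both peaks was found for 73.6% and 64.6%. The shares of all peaks at that setting are not given here, so these values describe the astrocyte genes only.

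To compare heights, each WT peak was matched to the Tyrobp-/- peak of the same gene that shared the most exonic bases. This gave 63 pairs in 34 astrocyte genes. The fold enrichment was higher in Tyrobp-/- in 37 pairs (58.7%) and lower in 26, against 55.6% higher over all 26070 pairs. The median log2 ratio of Tyrobp-/- over WT was 0.10 (interval -0.01 to 0.16), against 0.07 over all pairs. The interval includes 0. Without error between samples, none of these ratios has a test.

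Within the group, 36 pairs lay within 0.25 of 0 on the log2 scale (57.1%, against 37.4% of all pairs), and 4 differed at least 2-fold (6.35%, against 15.7%). Those 4 were the Fgfr3 pair that shared 1 base (-2.36), the 361-base Gja1 peak inside the longer Tyrobp-/- call (2.10), an Nfib pair of 661 and 151 bases (-1.13) and the Nfib exon peak (1.55). Of the 38 pairs whose exonic lengths were within 25% of each other, only the Nfib exon peak, in the span of Gm11266, differed by that much. Of these 38 pairs, 24 were higher in Tyrobp-/-, and the median log2 ratio was 0.11. Over all 13327 such pairs, 53.5% were higher and the median was 0.04.

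**Figure D4:**
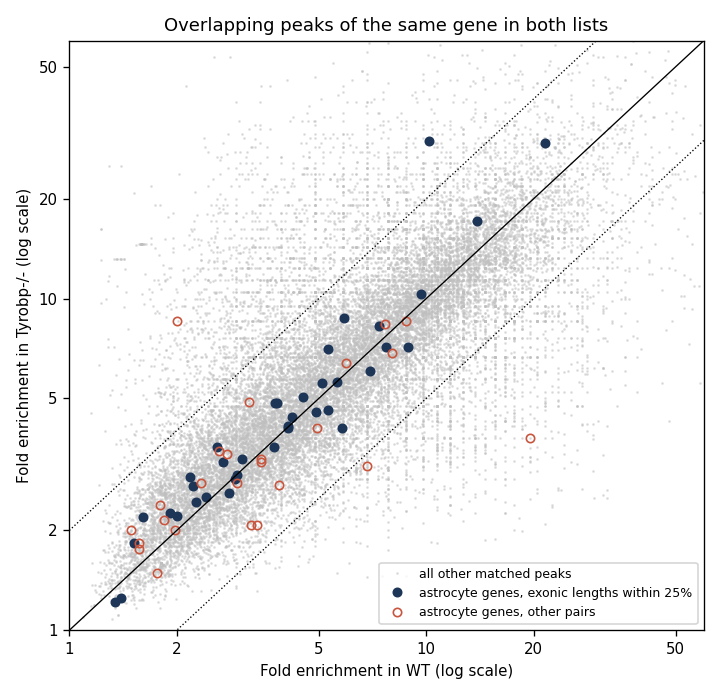
Fold enrichment in WT and in Tyrobp-/- (log scales) of overlapping peaks of one gene, for the 63 pairs of astrocyte genes and the other pairs (grey, 118 of all 26070 pairs lie outside the axes). The solid line marks equal values and the dotted lines a 2-fold difference, beyond which 4 astrocyte pairs lie, 1 of them with nearly equal exonic lengths.

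By role, the median log2 ratio was 0.35 over 5 metallothionein pairs, 0.19 over 8 matrix pairs, 0.12 over 8 metabolic pairs, 0.08 over 8 pairs of secreted proteins and 0.06 over 12 membrane pairs. It was -0.01 over 13 pairs of transcriptional regulators and -0.01 over 8 of receptors and signalling genes. The only cytoskeletal pair, that of Gfap, was at -0.09. Among the metallothioneins, the Mt2 pairs cover nearly the same bases but were counted separately, and the median is an Mt2 value. Among the regulators, some Id4 pairs over nearly the same bases were also counted separately.

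The comparison table asks which peaks differ in enrichment between the genotypes. It was made by the authors with exomePeak and held 5640 peaks in 4671 genes, of which 4638 had a peak in a genotype list, and how peaks entered it is not given in the sources used here. Astrocyte genes had 8 peaks in it, in 8 genes, which is 20% of the 40 with a peak, against 26.1% of all genes with a peak. Its p-values rest on reads pooled over the samples of a genotype, so they do not cover differences between mice.

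No astrocyte gene peak passed a fold change of at least 2 with an exomePeak p below 0.05, in either direction. Over the whole table, 9.01% of peaks passed as higher and 5.57% as lower in Tyrobp-/-. By the unadjusted exomePeak p below 0.05 alone, 6 of the 8 were higher in Tyrobp-/-, against 43.9% of all listed peaks, and 1 was lower, against 26.1%. At an FDR below 0.05 and with no fold threshold, 6 of the 8 passed in either direction, against 55.0% of all listed peaks. The median listed log2 fold change was 0.47 over the 8 peaks and 0.42 over all.

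The smallest p-values belonged to peaks with modest changes. Acsl6, which activates long-chain fatty acids, had a 3′ UTR peak (chr11:54361102-54361791) at 2.59 in WT and 3.58 in Tyrobp-/-, with a listed log2 fold change of 0.42 (in the authors' table, exomePeak p = 3.98e-35, FDR 1e-32). The Id4 3′ UTR peak (chr13:48263938-48264385) was at 1.8 and 2.38, with 0.51 (in the authors' table, exomePeak p = 2.51e-22, FDR 3.16e-20). For Gja1 a peak of the authors' 5′ UTR class (chr10:56386667-56387787) was at 2.69 and 3.22, with 0.35 (in the authors' table, exomePeak p = 2.57e-07, FDR 4.37e-06). For all 3 the enrichment was higher in Tyrobp-/- by 1.27-fold to 1.42-fold.

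Daam2, a formin of Wnt signalling, was the only one listed as lower in Tyrobp-/-. Its 3′ UTR peak (chr17:49458209-49459174, minus strand) was at 6.94 in WT and 6.05 in Tyrobp-/-, with a listed log2 fold change of -0.27 (in the authors' table, exomePeak p = 6.31e-12, FDR 2.24e-10). Its last-exon peak was at 4.94 and 4.06 and is not in the table, and a further peak of 211 bases at 7.61 was called in Tyrobp-/- at the end of that exon. The Ncan 3′ UTR peak was at 2.76 and 3.39, with a listed log2 fold change of 0.25 (in the authors' table, exomePeak p = 0.0102, FDR 0.0427).

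The remaining listed peaks had no overlapping WT peak. Plpp3, a lipid phosphatase, had a 3′ UTR peak at 1.98 in Tyrobp-/- with a listed log2 fold change of 0.63 (in the authors' table, exomePeak p = 0.000589, FDR 0.00407). The Vim 3′ UTR peak was at 2, with 0.61 (in the authors' table, exomePeak p = 0.0138, FDR 0.0549). The Aldh1l1 3′ UTR peak (chr6:90600053-90600173) had the highest listed log2 fold change, 2.26, and did not pass the test (in the authors' table, exomePeak p = 0.241, FDR 0.40).

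**Figure D5:**
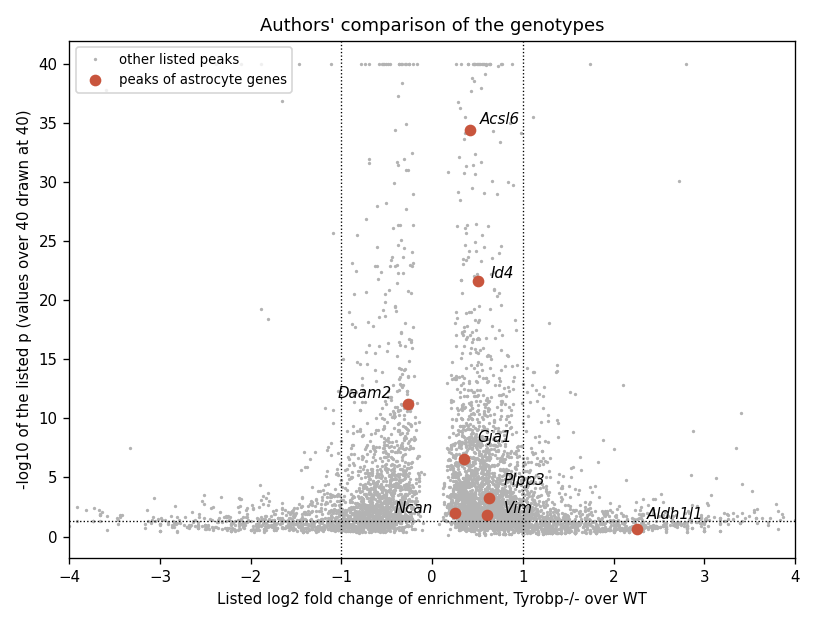
Listed log2 fold change (Tyrobp-/- over WT) and -log10 of the listed p for the peaks of the comparison table, with the 8 astrocyte gene peaks named (18 listed peaks lie outside the horizontal axis). Dotted lines mark a 2-fold change and a p of 0.05; 7 of the 8 lie right of 0, none beyond both lines, and Aldh1l1 at 2.26 lies below the p line.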

How the data were processed

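MeRIP-seq libraries (IP and input) came from 3 pooled hippocampal samples per genotype. Per the submitters' notes and the study's methods, the authors used fastp, HISAT2 (Ensembl v96, positions on GRCm38), exomePeak, ChIPseeker and HOMER. The authors deposited for each peak the fold enrichment (a ratio of IP over input) and a score, the log10 of its FDR. In the comparison table, the authors deposited the log2 fold change, the p-value and the log10 FDR score that exomePeak computed. For each library the authors deposited the count of valid reads and the percent of G and C bases, made with fastp. The comparison columns are the authors' own exomePeak output and were counted as deposited, since that table is one of the sources of the peaks.

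Peaks were taken by gene name, classed from the annotation column, and matched by shared exonic bases with Python 3.11.15, pandas 2.3.3 and scipy 1.17.1. Matching was tested on simulated data. A call needed a 2-fold change and a p, not adjusted, under 0.05. Peak positions were set beside RefSeq genes of GRCm38, and whether exomePeak used strand is not given in the sources used here. Peaks in the span of another RefSeq gene are named as such.

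The genes, their grouping by role and the other marker lists were chosen with earlier results of these data known. Named were genes past both thresholds, the 5 highest and 5 lowest by listed fold change, those with a peak in 1 list only, the 5 with the highest fold enrichment in each list, the 5 with most peaks, those without a peak, and Gfap, Aqp4, Apoe, Clu, Aldh1l1, Glul, Mt1, Mt2 and Mt3; the rest are given briefly by role, outside that rule. Genes of other lists were named where a peak passed the thresholds. Input expression values were not analysed here. Alternatives are given in the closing section.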

Additional observations from a re-analysis of the deposited data

How the results depend on the processing

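No paired analysis was possible because the peaks were called on the 3 samples of a genotype together, so no value belongs to 1 sample, and for the same reason no sample could be left out. With peaks of a fold enrichment of at least 4 only, 21 astrocyte genes had a peak in WT and 22 in Tyrobp-/-, in place of 38 and 38. With 1 peak per gene, the strongest, the median fold enrichment was 4.37 and 4.48 in place of 3.2 and 3.29, and over all genes it was 8.01 and 8.17. A reciprocal overlap of 50% was met by 73.6% of WT and 64.6% of Tyrobp-/- peaks, in place of 87.5% and 81.7%, and with both lists held to an FDR below 1e-5 the Tyrobp-/- share was 90.3%. Shares of all peaks at these overlap settings are not given here. The number of peaks called higher in Tyrobp-/- was 0 at a fold change of 2, 2 at 1.5 and 6 with no fold threshold, and the number called lower was 0, 0 and 1. The median log2 ratio stayed above 0 with a reciprocal overlap (55 pairs, 33 higher), with 1 pair per gene (34 pairs, 20 higher) and, chosen after seeing the data, with near-equal lengths (38 pairs, 24 higher). Over all pairs the median was also above 0, at 0.07 with 55.6% higher, and at 0.04 with 53.5% higher for near-equal lengths. Values over all pairs at the other settings are not given here. The 5 listed peaks with an overlapping peak in both lists had the same sign in the ratio of list values. Depth behind single peaks is unknown, which limits every value here.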

Other observations

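Other fixed gene lists gave values beside those of the astrocyte genes. Over all listed peaks, 43.9% were higher and 26.1% lower in Tyrobp-/- by the exomePeak p alone. Past both thresholds these shares were 9.01% and 5.57%. Of 20 further astrocyte genes, 16 had a peak, with a median fold enrichment of 5.37 in WT and 4.76 in Tyrobp-/-. They had 7 peaks in the comparison table, of which none passed the fold and p thresholds, and 5 were higher and 1 was lower by the exomePeak p alone. Of 33 genes of reactive astrocytes, 20 had a peak, with medians of 4.97 and 6.77, and 6 peaks were listed. Of these, 3 were higher and none was lower by the exomePeak p alone, and 1 of the 3 passed both thresholds, a 61-base 3′ UTR peak of Iigp1, an interferon-inducible GTPase (chr18:60392425-60392485), with a listed log2 fold change of 2.26 (in the authors' table, exomePeak p = 0.0339, FDR 0.108).

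Lists of other cell types were as follows, where 43.9% of all listed peaks were higher and 26.1% lower by the exomePeak p alone. Oligodendrocyte genes had a peak in 12 of 12 genes, medians of 3.28 and 4.08, and 6 listed peaks that were all higher in Tyrobp-/- by the exomePeak p alone, none of them by 2-fold. Microglial genes had a peak in 10 of 12, medians of 5.16 and 5.34, and 3 listed peaks, of which 2 were lower by p alone. Neuronal genes had a peak in 11 of 12, medians of 2.53 and 3.84, and 1 listed peak that did not pass. Endothelial genes had a peak in 5 of 8, medians of 8.72 and 8.22, and 1 listed peak that was higher by p alone.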
